A study of Arabidopsis thaliana with 18 samples.

Results

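The regions described here are the pericentromeric intergenic tiles of *Arabidopsis thaliana*, consecutive 1 kb stretches counted from the first base of each chromosome that overlapped no gene span of the deposited count files and lay around a centromere, within 13 to 17 Mb of chromosome 1, 2 to 6 Mb of chromosome 2, 11.5 to 16 Mb of chromosome 3, 2.5 to 5.5 Mb of chromosome 4 or 10 to 14.5 Mb of chromosome 5. Of the 119144 tiles of the nuclear genome, 16018 (13.4%) met this rule, with 3235, 3028, 3719, 2462 and 3574 on chromosomes 1 to 5. These members made up 80.1% of the tiles inside the 5 intervals, whereas intergenic tiles made up 20.1% outside them. MethylC-seq, in which bisulfite converts unmethylated cytosines before sequencing, was performed on 3 WT (Col-0) plants and 3 plants of *strs2*, a T-DNA insertion mutant in the Col-0 background, using true leaves 4 to 9 of 3-week-old plants grown under a 12 h photoperiod. A single insertion line represents the mutant, each plant is 1 library and 1 biological replicate, and the labels give no light treatment for these 6 plants. The series also holds 12 mRNA-seq libraries of WT plants, of which only the gene spans were used, and the leaf identity of the methylation samples could not be checked against markers in these data.

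Pericentromeric DNA of *Arabidopsis* is rich in transposable elements and other repeats and is packed as heterochromatin. CG methylation is copied at replication by MET1, CHG methylation (H being A, C or T) is maintained chiefly by CMT3 and CHH methylation by CMT2 in long heterochromatic elements and by DRM2, the methyltransferase of RNA-directed DNA methylation, at short elements and element edges. STRS2 is a DEAD-box RNA helicase that has been linked to RNA-directed DNA methylation, and the comparison of WT with *strs2* asks how far its loss changes the methylome.

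The sequence of a few members is printed so that the levels can be read beside it. All are taken from the RefSeq sequence of the assembly TAIR10.1, whose nuclear chromosomes matched the TAIR10 positions of the files, on the forward strand. The first is the middle of the member closest to the median WT level in all 3 contexts (chr2:2667351-2667650). The next 3 carry the largest differences between the genotypes, namely the member with the largest rise of CG and of CHG methylation in *strs2* (chr1:13604351-13604650), that with the largest fall of CG (chr2:2241351-2241650) and that with the largest fall of CHG (chr1:13699351-13699650). Capitals mark CG dinucleotides.
median member: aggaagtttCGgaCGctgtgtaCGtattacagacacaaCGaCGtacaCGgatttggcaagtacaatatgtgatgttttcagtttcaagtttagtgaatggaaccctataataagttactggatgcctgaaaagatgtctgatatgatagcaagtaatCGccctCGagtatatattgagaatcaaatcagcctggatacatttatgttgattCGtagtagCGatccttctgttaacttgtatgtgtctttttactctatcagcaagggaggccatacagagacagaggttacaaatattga
largest CG rise: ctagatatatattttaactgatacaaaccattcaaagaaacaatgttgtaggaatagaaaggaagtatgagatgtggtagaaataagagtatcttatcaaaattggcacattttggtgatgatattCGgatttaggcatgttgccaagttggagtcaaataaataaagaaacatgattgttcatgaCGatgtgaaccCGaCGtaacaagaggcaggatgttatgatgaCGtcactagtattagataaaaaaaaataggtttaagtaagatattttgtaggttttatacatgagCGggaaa
largest CG fall: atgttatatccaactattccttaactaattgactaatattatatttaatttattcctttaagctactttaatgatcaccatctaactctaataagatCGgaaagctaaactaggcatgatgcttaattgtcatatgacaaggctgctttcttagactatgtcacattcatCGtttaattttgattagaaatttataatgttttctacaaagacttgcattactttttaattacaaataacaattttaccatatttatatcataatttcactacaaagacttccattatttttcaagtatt
largest CHG fall: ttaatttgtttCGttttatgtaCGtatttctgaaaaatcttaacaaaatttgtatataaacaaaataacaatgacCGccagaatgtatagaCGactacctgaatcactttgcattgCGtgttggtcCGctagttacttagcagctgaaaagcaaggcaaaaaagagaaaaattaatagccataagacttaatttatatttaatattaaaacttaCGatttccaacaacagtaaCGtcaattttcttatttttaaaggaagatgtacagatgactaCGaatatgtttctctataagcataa

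In the middle of the member with the highest WT CHH level (chr5:14298351-14298650) the trinucleotides that CMT2 prefers are marked. Their own levels in this window were not computed. Capitals mark CAA and CTA, and TTG and TAG where the cytosine lies on the other strand.
highest CHH member: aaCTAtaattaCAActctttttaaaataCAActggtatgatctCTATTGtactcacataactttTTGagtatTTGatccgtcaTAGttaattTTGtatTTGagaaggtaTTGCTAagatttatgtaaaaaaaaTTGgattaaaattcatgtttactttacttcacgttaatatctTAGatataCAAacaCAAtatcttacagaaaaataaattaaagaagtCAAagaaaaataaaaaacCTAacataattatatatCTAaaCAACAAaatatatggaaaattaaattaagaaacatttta

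The last set shows why tandem repeats were treated as a kind of their own. It holds 3 consecutive units of 178 bases from a member on chromosome 3 (chr3:13590001-13590178, chr3:13590179-13590356 and chr3:13590357-13590534), chosen as the member with the highest identity at this spacing, after the values had been seen. The 178-base unit is the length class of the *Arabidopsis* centromere satellite. Units 1 and 2 were identical at 171 of 178 bases, units 2 and 3 at 173 and units 1 and 3 at 172. Capitals again mark CG dinucleotides, of which the units hold 5, 5 and 3.
tandem unit 1: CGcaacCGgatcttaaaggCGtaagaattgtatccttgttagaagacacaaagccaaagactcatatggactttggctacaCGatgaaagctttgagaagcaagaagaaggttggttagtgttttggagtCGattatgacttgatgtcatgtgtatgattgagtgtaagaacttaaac
tandem unit 2: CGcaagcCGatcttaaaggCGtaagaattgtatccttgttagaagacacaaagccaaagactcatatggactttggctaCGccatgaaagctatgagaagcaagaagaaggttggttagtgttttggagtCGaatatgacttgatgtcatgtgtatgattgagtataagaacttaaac
tandem unit 3: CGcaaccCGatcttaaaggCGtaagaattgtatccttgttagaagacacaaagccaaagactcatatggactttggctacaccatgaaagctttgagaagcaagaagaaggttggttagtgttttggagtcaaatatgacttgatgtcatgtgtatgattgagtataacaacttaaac

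Levels are weighted methylation levels, the percentage of methylated calls among all calls at the cytosines of a group of tiles with a depth of 4 or more in that plant. The mean depth of CG cytosines in members ranged from 6.93 to 9.05 calls between plants, and 68.4 to 81.6% of their CG cytosines passed the minimum. No cytosine was listed in any plant for 848 members in CG, 839 in CHG and 787 in CHH, among them 162 members without a known base, of which 158 lie on chromosome 1. Single tiles were tested where every plant had at least 5 cytosines and 30 calls, which held for 14371 members in CG, 14374 in CHG and 15013 in CHH. A tested member had a median of 263 CG calls per plant. CHH levels of the chloroplast genome, which is taken to be unmethylated, were 0.434 to 0.586%, an upper bound on failed conversion and miscalls.

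One library stood apart in the members. In CG context the WT plants reached 79.7, 80.2 and 76.7% (replicates r1, r2, r3) and the *strs2* plants 80.01, 80.2 and 79.05%, so that WT-r3 lay below the other 5 plants. The same library was lowest in CHG (31.6% against 34.4 to 35.2%) and in CHH context (6.42% against 6.60 to 7.67%). WT-r3 was also the library with the highest depth, at a mean of 9.05 calls per CG cytosine against 6.93 to 7.74, and its part in the levels was tested only on cytosines with a depth of 4 or more in all 6 plants, a check added after the data were seen. There WT-r3 remained lowest, at 74.98% against 77.5 to 78.7% in CG context. On such cytosines of intergenic tiles outside the intervals it was also lowest in CG (20.2% against 20.9 to 22.2%) and CHG context (10.3% against 10.9 to 12.0%). In CHH context *strs2*-r1 was lowest there, at 2.45% against 2.51% in WT-r3. The average differences between genotypes and the counts of members that differ are therefore given with and without this plant, and the named tiles with the value of each plant.

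The members were the most methylated of the 4 kinds of tile in every context. Over the 6 plants they had 79.3% ± 1.32 CG, 34.3% ± 1.34 CHG and 6.98% ± 0.487 CHH methylation (SD, n = 6). Intergenic tiles outside the intervals stood at 25.99% ± 0.801, 13.4% ± 0.776 and 3.20% ± 0.229. The members exceeded them by 53.3 points in CG (3.05-fold), 20.8 points in CHG (2.55-fold) and 3.77 points in CHH (2.18-fold), in 6 of 6 plants each (two-sided exact sign-flip permutation test over plants, n = 6, p = 0.0313, the smallest this test can give, adjusted p = 0.0313 over 9 comparisons). Genic tiles inside the same intervals stood at 42.5% ± 0.761 in CG, 10.2% ± 0.448 in CHG and 2.68% ± 0.196 in CHH, again below the members in all 6 plants. The ranges over plants of the members did not overlap those of any other kind of tile.

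**Figure D1:**
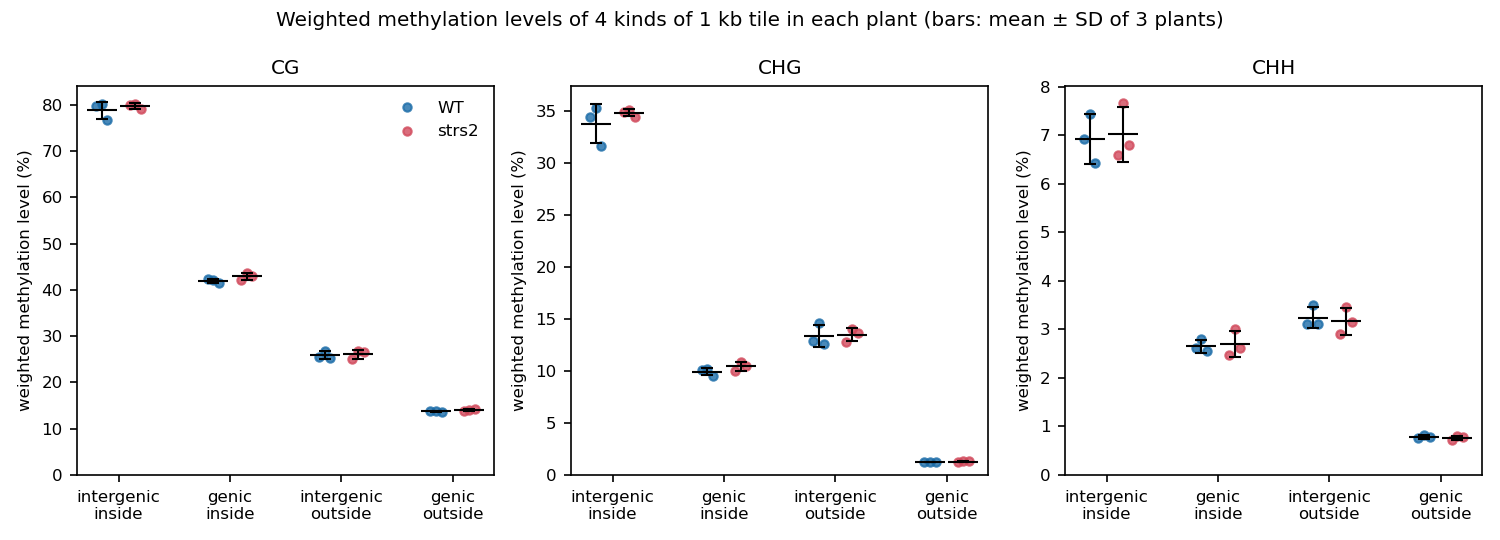
Weighted CG, CHG and CHH methylation level (%, vertical axes) of 4 kinds of 1 kb tile, intergenic and genic tiles inside and outside the pericentromeric intervals, with a point for each WT (blue) and *strs2* (red) plant and bars for the mean ± SD of 3 plants. The intergenic tiles inside the intervals sit highest in each panel, between 76.7 and 80.2% in CG, 31.6 and 35.2% in CHG and 6.42 and 7.67% in CHH.

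Within the members, CG methylation was near uniform and non-CG methylation was graded. The WT CG level of single tested members had a median of 83.8%, with 79.5 and 86.9% at the quartiles, against a median of 1.01% for intergenic tiles outside the intervals. In CHG context the quartiles were 21.9, 32.9 and 41.9%, and in CHH context 4.27, 7.12 and 9.61%. A WT CG level of at least 50% was reached by 13219 of the 14371 tested members. Across the 14128 members tested in all 3 contexts, CHG and CHH levels rose together (Pearson r = 0.833, Spearman rho = 0.833), whereas CG and CHG did so less closely (r = 0.567, rho = 0.271). Among the 12991 members with CG of 50% or more these values were 0.799 and 0.803 for CHG with CHH, and 0.208 and 0.0752 for CG with CHG. The correlations are across tiles of the same libraries, which are not independent, and the levels also moved with base composition, CHG with GC content at r = 0.549 and CHH at r = 0.518.

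A minority of members lacked this pattern. The WT CG level was under 10% in 484 of the 14128 members (3.43%), and their median was 0.506% in CHG and 0.535% in CHH context, close to the chloroplast level. They lay closer to genes, at a median of 1748 bases against 7881 for members with CG of 50% or more, and 57.2% of them lay 1.5 Mb or more from the interval centre, against 19.1%. The median share of 31-base words that recur in the nuclear genome was 0% in these members and 23.7% in those with CG of 50% or more. By chromosome, the share under 10% was lowest on chromosome 4 (1.80%) and highest on chromosome 1 (4.82%).

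The level also depended on the bases that followed the cytosine. In CHG context CCG stood at 21.3% ± 0.916 and CAG and CTG together at 37.4% ± 1.47 (SD, n = 6), a difference of -16.05 points that was present in 6 of 6 plants (exact sign-flip permutation test, p = 0.0313, the smallest possible, adjusted p = 0.0313 over 2 comparisons). In CHH context CAA and CTA, the trinucleotides preferred by CMT2, stood at 15.9% ± 1.13 and the other 7 together at 3.25% ± 0.238, a difference of 12.7 points with the same test result. CAA (15.8%) and CTA (16.03%) were close, CTC (5.20%) and CTT (4.03%) came next, and CCC (1.22%) and CCT (1.21%) were lowest. Outside the intervals CAA and CTA reached 5.31 and 5.07%, whereas CCC (1.87%) and CCT (1.51%) were above their levels in the members, so that the excess of the members in CHH context was not shared by every trinucleotide. In CG context CGT was lowest at 74.1% ± 1.53, against 80.6 to 82.0% for CGA, CGC and CGG. These orders held in WT and *strs2* alike, for example CAA at 15.7% ± 1.29 in WT and 15.97% ± 1.22 in *strs2* (SD, n = 3).

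The order of the 5 chromosomes was not the same in the 3 contexts. CG levels ran from 80.3% on chromosome 4 over 79.5% on 5, 79.3% on 3 and 78.9% on 2 to 78.6% on chromosome 1. Each neighbour in this order differed in 6 of 6 plants except chromosomes 2 and 1, which differed in 5 of 6 (exact sign-flip permutation test, p = 0.0938, adjusted p = 0.113). CHG levels were 35.6% on chromosome 1, 34.4% on 4, 34.2% on 5, 33.8% on 3 and 33.7% on 2, and neither chromosomes 4 and 5 nor chromosomes 3 and 2 differed beyond the spread between plants (exact permutation test, p = 0.281 each). CHH levels fell from 7.82% on chromosome 1 to 7.04% on 3, 6.93% on 5, 6.78% on 2 and 6.39% on 4, every step being present in 6 of 6 plants. Chromosome 4 was lowest in CHH and, over all members, highest in CG context, but without the tiles of chromosome 2 that share at least 10% of their words with the organelle genomes chromosome 2 stood at 80.29% and chromosome 4 at 80.25% CG, a difference of 0.0315 points in 4 of 6 plants (exact sign-flip permutation test, p = 0.688). The 9 pairs that passed had p = 0.0313 in the exact test and an adjusted p = 0.0417 over the 12 pairs, which can pass only where at least 8 pairs reach the smallest p, and several differences were small, such as 0.111 points between chromosomes 3 and 5 in CHH context. With a depth of 10 or more per cytosine 6 of the 12 pairs were ordered alike in every plant, and none passed.

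Along the intervals CG methylation was flat over the centre and fell towards the edges. Members under 0.5 Mb from the interval centre had a CG level of 82.0% ± 1.55, and the next 2 steps of 0.5 Mb 81.5% ± 1.41 and 80.3% ± 1.24, while members 1.5 Mb or more away, up to the edge at 2.25 Mb, stood at 71.4% ± 1.15 (SD, n = 6). Chromosome 4, with an interval of 3 Mb, has no members in that outermost group. The innermost members exceeded the outermost by 10.7 points in CG, 4.90 points in CHG and 0.488 points in CHH, in 6 of 6 plants each (exact sign-flip permutation test, p = 0.0313, adjusted p = 0.0331 over 18 comparisons). In CHH context the members 1 to 1.5 Mb from the centre did not differ from the outermost by more than the spread between plants (-0.0147 points, exact permutation test, p = 0.75). The CHH difference between innermost and outermost members was 0.1401 points (exact permutation test, p = 0.156) where members within 1 kb of a gene were left out.

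Chromosome by chromosome, in a comparison added after the data were seen, the innermost members exceeded the outermost in CG on chromosomes 1, 2, 3 and 5 by 16.9, 4.59, 10.5 and 12.8 points (exact sign-flip permutation test, adjusted p = 0.0341 over 12 comparisons each). In CHH context the difference was 2.77 points on chromosome 1, 0.944 on 3 and 1.81 on 5. On chromosome 2 it had the opposite sign, 6.79% in the innermost and 7.93% in the outermost members, a difference of -1.14 points in 6 of 6 plants (exact permutation test, adjusted p = 0.0341). The CHG difference on chromosome 2 was 0.181 points and lay within the spread between plants (exact permutation test, adjusted p = 0.406). In bins of 0.25 Mb, WT CHH levels ranged from 2.65 to 11.2%, and the highest bin lay 0.375 Mb from the centre on chromosome 1. On chromosome 5 the bins on one side of the centre, at -0.375 and -0.125 Mb, reached 9.31 and 9.43%, and the bin at 0.125 Mb 6.71%.

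**Figure D2:**
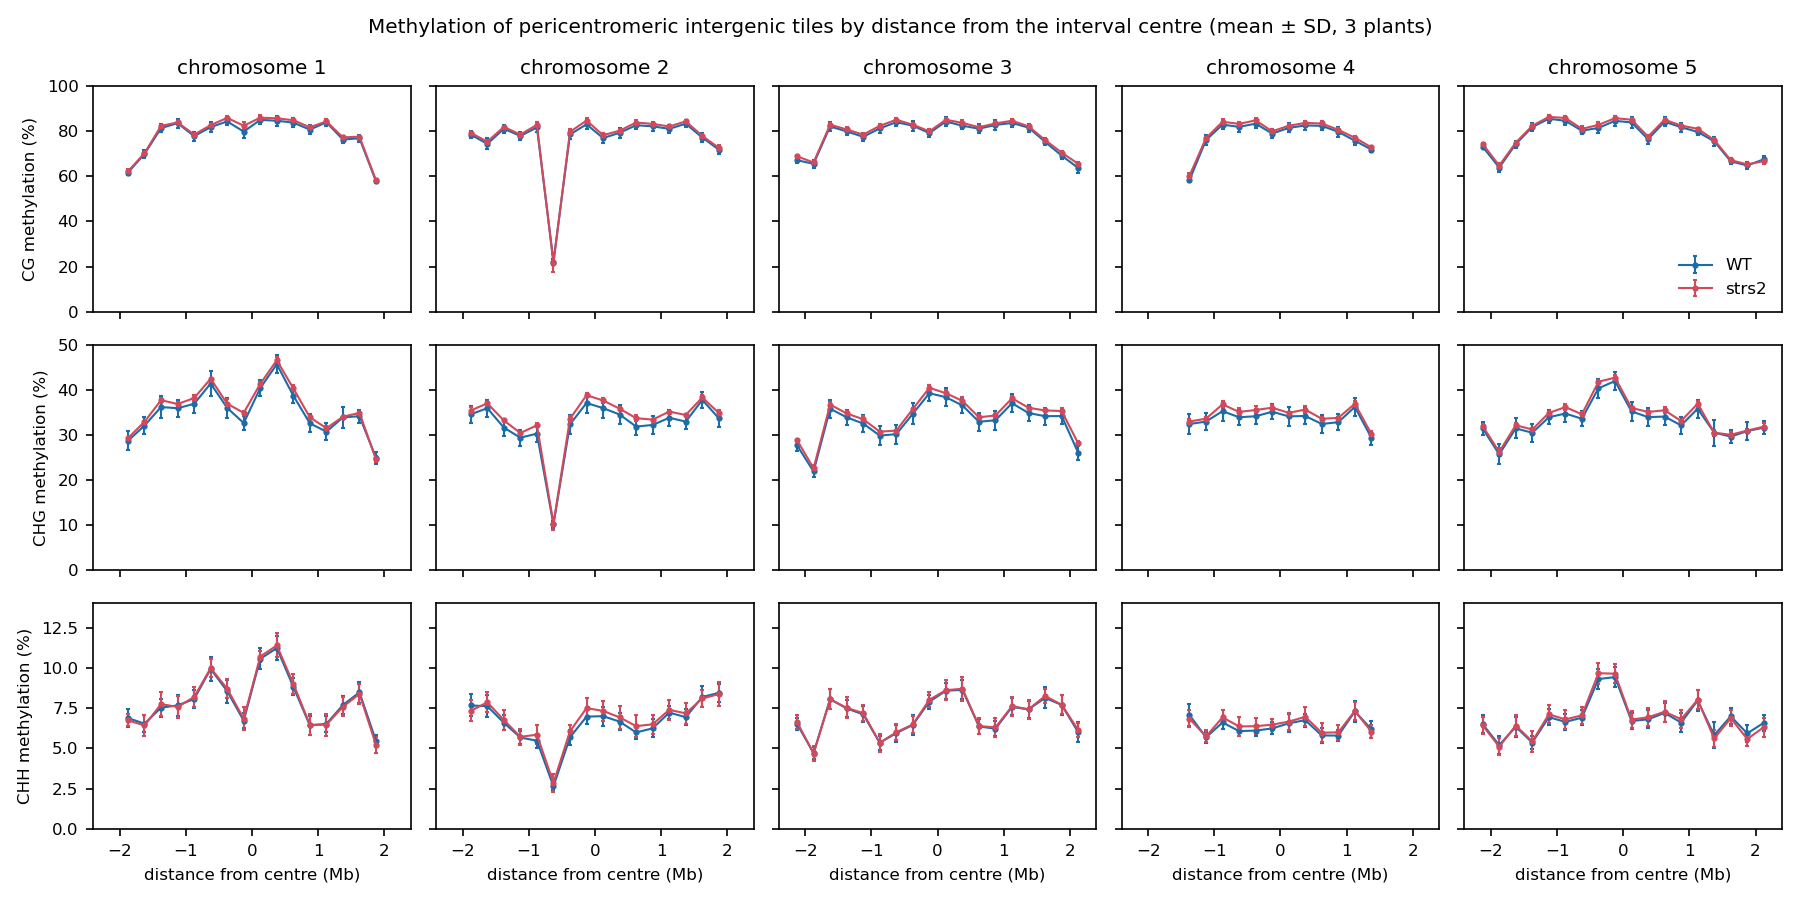
CG, CHG and CHH methylation (%, rows) of the members in bins of 0.25 Mb against the signed distance from the interval centre (Mb, horizontal axes) on chromosomes 1 to 5 (columns), as mean ± SD of 3 WT (blue) and 3 *strs2* (red) plants. CG levels fall at the edges, to 57.7% in WT on chromosome 1, and dip to 22.2% in 1 bin of chromosome 2.

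The dip on chromosome 2 fell on a copy of organelle DNA. All 69 members of that bin, centred at -0.625 Mb, shared at least 10% of their 31-base words with the chloroplast or mitochondrial genome, and 80 of the 88 such members of the whole set lie on chromosome 2. On chromosome 2 their WT plants had 28.4, 29.5 and 28.1% CG methylation and their *strs2* plants 24.02, 32.3 and 27.2%, with CHG at 11.05 to 14.4% and CHH at 2.93 to 4.18%. Their mean CG depth was 16.01 to 19.7 calls against 6.93 to 9.05 for all members, and only 20.4 to 23.1% of their CG cytosines passed the depth minimum, so that reads from the organelle genome and from the nuclear copy cannot be told apart here. Without them the CG level of chromosome 2 was 80.3% ± 1.43 in place of 78.9% ± 1.37.

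Members also differed by what they contain. Of the 16018, 9313 (58.1%) overlapped 1 of 2984 loci that the RefSeq annotation lists as pseudogenes and the count files do not hold, a class that in *Arabidopsis* includes many remnants of transposable elements. These members had 82.3% ± 1.35 CG, 37.2% ± 1.40 CHG and 7.70% ± 0.499 CHH methylation, and those overlapping no such pseudogene 73.8% ± 1.23, 27.1% ± 1.15 and 5.82% ± 0.438 (differences of 8.46, 10.1 and 1.89 points). Overlap with other annotated features was not examined. Members in which at least 50% of the 31-base words recur in the nuclear genome exceeded those with under 5% by 11.1 points in CG, 13.5 in CHG and 3.604 in CHH. Members over 20 kb from the nearest gene exceeded those within 1 kb by 15.8, 13.3 and 2.74 points, the latter standing at 67.2% in CG, 24.9% in CHG and 5.15% in CHH. All 9 differences had the same direction in 6 of 6 plants (exact sign-flip permutation test, p = 0.0313, adjusted p = 0.0331). Repeats, pseudogenes, GC content and distance from genes vary together across these tiles, and their parts were not separated.

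Tandem repeats went the other way. In 293 members at least 70% of the bases matched the sequence 50 to 500 bases further on, against 9 of the 19923 intergenic tiles outside the intervals (1.83% and 0.0452%). The spacing was 178 bases in 100 of them, 356 in 30 and 159 in 27. They had 71.2% ± 1.47 CG, 23.7% ± 0.962 CHG and 6.29% ± 0.362 CHH methylation (SD, n = 6), below the other members by 8.27, 10.7 and 0.713 points in 6 of 6 plants (exact permutation test, adjusted p = 0.0331). Their mean CG depth of 15.1 to 17.9 calls was above the 6.86 to 8.98 of other members, and reads from near-identical units placed on 1 copy cannot be told apart from its own. In the tandem member printed above, CG levels were 63.6 to 68.0% over the 6 plants at 2279 to 2755 calls. Its units differed, with 64.7 to 73.3% in unit 1, 44.2 to 51.2% in unit 2 and 78.2 to 85.3% in unit 3, an order shared by all 6 plants.

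Loss of STRS2 left the average level of the members within the spread between plants. The level in *strs2* minus that in WT was 0.873 points in CG (79.7% ± 0.605 against 78.9% ± 1.85, SD, n = 3 each), 1.02 points in CHG (34.8% ± 0.342 against 33.8% ± 1.89) and 0.0961 points in CHH (7.03% ± 0.567 against 6.93% ± 0.513). Two-sided exact permutation tests of 3 against 3 plants, which cannot go below p = 0.1, gave p = 0.7, 0.7 and 0.8 (adjusted p = 0.8 each). Without WT-r3 the differences became -0.185, -0.0423 and -0.158 points. None of the 15 differences by chromosome and context reached an adjusted p under 0.964, the largest being 1.33 points in CHG on chromosome 2 (exact permutation test, p = 0.3). Of these 15 differences 14 were above 0 with all plants and 1 without WT-r3, where they ran from -0.390 points (CG, chromosome 1) to 0.276 points (CHG, chromosome 2).

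Few single members differed between the genotypes. Calls were tested per tile with the quasi-likelihood test of edgeR on methylated and unmethylated calls, adjusted by the Benjamini-Hochberg method over all tiles. In CG context 128 of 14371 tested members rose in *strs2* (0.891%) and 110 fell (0.765%), while 3.69% and 3.77% of all 115853 tested tiles did so, which makes 238 members (1.66%) beside 7.45% of all tiles in either direction. The members thus had a smaller share of CG calls than tiles in general, most of which were genic tiles outside the intervals (9.25%). The share was 4.36% in intergenic tiles outside the intervals and 7.88% in genic tiles inside them. In CHG context 18 members rose and 8 fell, of 14374, beside 0.177% and 0.120% of all tiles, or 26 (0.181%) beside 0.297% in either direction. In CHH context 3 of 15013 members rose, beside 0.0443% of all tiles, and none fell, beside 0.0315%, the 3 standing beside 0.0759% in either direction. At an unadjusted p below 0.05, 355 members (2.36%) passed in CHH context, beside 5.004% of all tiles. This share depended on the model, since the likelihood ratio test of edgeR passed 623 members (4.15%) and a quasi-binomial model 1313 (8.75%). Unadjusted shares of all tiles were not computed for these models, so that members cannot be set against all tiles there. The quasi-binomial share of members also exceeded that of the main test for CHG (11.4% against 3.24%) and for CG (9.58% against 5.85%). The main test passed 4.92% of all tiles in CHG and 15.9% in CG context. After adjustment the likelihood ratio test called 9 CHH members risen and 4 fallen, the quasi-binomial model 2 and 1. Of all 117326 tested tiles they called 111 and 110, and 42 and 38. The median size of the called CG differences was 13.5 points for rises and -15.7 points for falls, against a median SD within genotypes of 2.90 and 3.19 points in the same tiles. Members whose 3 *strs2* plants all lay above the 3 WT plants numbered 1209 in CG (8.41%, beside 11.0% of all tiles), and those whose *strs2* plants all lay below numbered 396 (2.76%, beside 9.77%). In CHG context the counts were 1382 above (9.61%, beside 5.49%) and 301 below (2.09%, beside 4.74%), and in CHH context 965 above (6.43%, beside 4.14%) and 440 below (2.93%, beside 5.75%). In each context more members had *strs2* above WT than below, and without WT-r3 this held in CHG but turned in CG and CHH context. Without that plant, when non-overlap of 3 with 2 plants is also easier to reach, 1406 members lay above and 1682 below in CG context (9.78 and 11.7%, beside 13.8 and 15.6% of all tiles). In CHG context 1756 lay above and 1274 below (12.2 and 8.86%, beside 8.73 and 10.6%), and in CHH context 1332 above and 1400 below (8.87 and 9.33%, beside 7.56 and 12.3%). The edgeR test without WT-r3 called 86 members higher and 103 lower in CG, 12 and 8 in CHG, and 2 and 0 in CHH. The excess of CG rises over falls in the members thus turned as well. Over all tested tiles CG falls outnumbered rises with all plants, and by a wider margin without WT-r3. The shift towards falls was therefore not limited to the members.

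**Figure D3:**
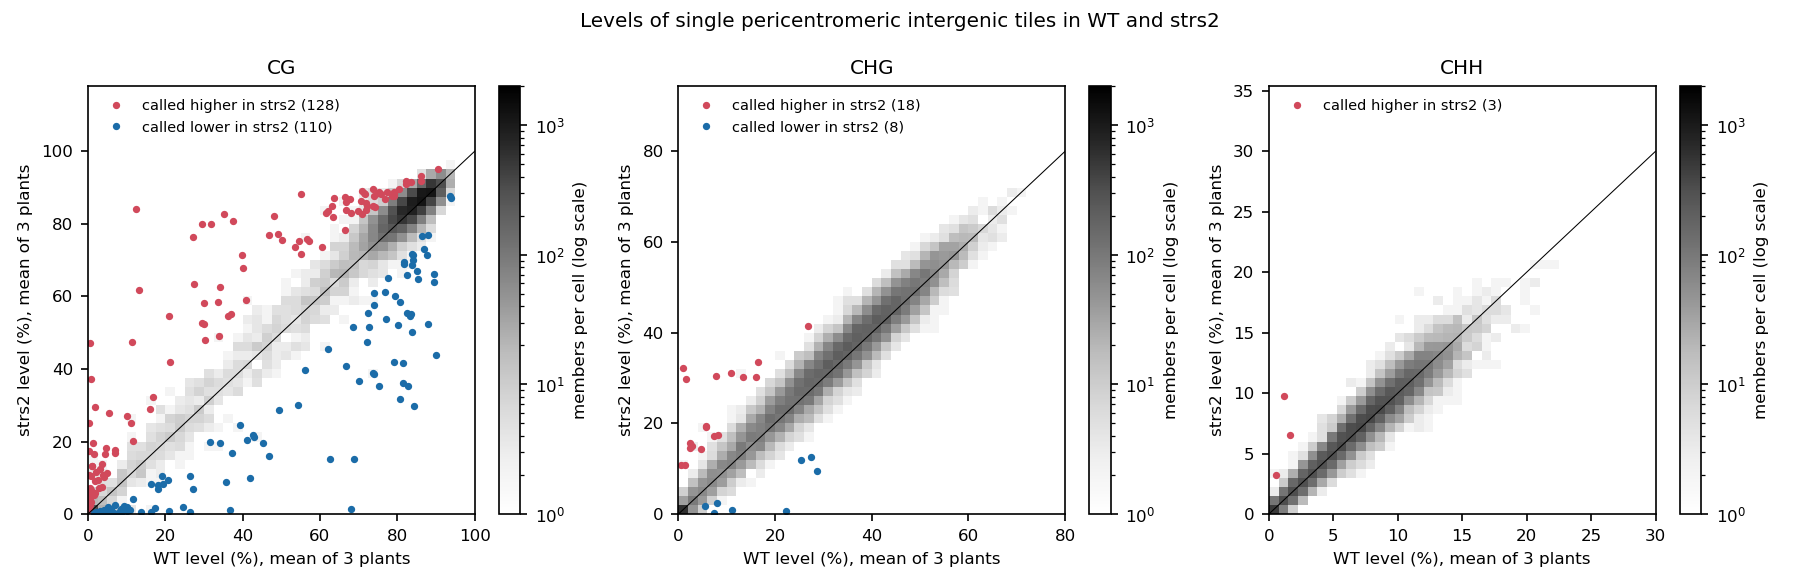
Mean level of 3 *strs2* plants (%, vertical axis) against that of 3 WT plants (%, horizontal axis) for single members in CG, CHG and CHH context, with the number of members per cell in grey (log scale) and the called members as points, red for rises and blue for falls. Most members lie along the diagonal, and the 128 risen and 110 fallen members in CG context spread over the whole range of WT levels.

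The share of called members varied with their level and place. In CG context it was 15.2% of the 488 members with a WT level under 10%, 9.34% of the 664 with 10 to 50%, and 0.772% of the 13219 with 50% or more, beside 8.49, 10.7 and 2.74% of all tiles at these levels. The called differences had a median size of 4.70 points in the first group and of 20.6 and 16.7 points in the others. These groups use the WT plants of the comparison itself and are a description. By distance the share of called members was 0.857% under 0.5 Mb from the centre and 3.14% at 1.5 Mb or more. By distance from genes it was 4.44% within 1 kb and 0.324% beyond 20 kb. These stand beside 1.66% of all members and 7.45% of all tiles, and shares of all tiles by place were not computed. Members low in CG lay closer to genes and more often in the outermost group, and level and place were not separated. Of the members with repeated words at 50% or more, 10 of 3121 were called (0.320%), beside 3.98% of those with under 5%. On chromosomes 1 to 5 the shares were 1.42, 1.83, 1.89, 1.12 and 1.81%, beside 1.66% of all members, and their differences were not tested. The contexts overlapped, with 21 members called in both CG and CHG context, 80.8% of those called in CHG and 8.82% of those called in CG, and all 21 had the same sign. The 3 members called in CHH context were called in the other contexts too.

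The largest rise in CG context lay at chr1:13604001-13605000, 1.40 Mb from the centre and 5985 bases from the nearest gene, AT1G36230. CG methylation of the WT plants was 11.3, 13.8 and 12.5% and that of the *strs2* plants 86.7, 82.6 and 82.8%, a rise of 71.5 points (edgeR adjusted p = 9.72e-14). All *strs2* plants lay far above all WT plants, at 189 to 311 calls per plant, which leave 95% Wilson intervals of 7.37 to 10.4 points per plant. The same tile had the largest rise in CHG context, from 0, 1.64 and 1.03% to 36.4, 33.3 and 27.1% (31.4 points, adjusted p = 2.31e-24), where the 0 of 179 calls in WT-r1 allows a level of up to 1.68%. It was also called in CHH context, at 0.827, 2.60 and 1.43% in WT and 4.73, 10.2 and 4.81% in *strs2* (adjusted p = 0.0203), with *strs2*-r2 above the other *strs2* plants. In the printed window the contrast in CG context was sharper, 2.08, 0 and 0.926% against 84.0, 85.6 and 85.9%, the 0 of 76 calls in WT-r2 allowing up to 3.95%. In CG context the neighbours did not share the difference, the preceding tile being at 0 to 4.18% in every plant and the following tile at 79.6 to 85.8%. In the following tile CHG was at 34.04 to 39.8% in WT and 41.5 to 47.9% in *strs2* and CHH at 6.58 to 7.56% and 7.59 to 10.9%, ranges that do not overlap, though neither was called (edgeR adjusted p = 1 each).

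The next rises in CG context lay at chr3:14931001-14932000, 323 bases from AT3G42830, and at chr5:13605001-13606000, 257 bases from AT5G35405. The former went from 32.5, 23.5 and 32.7% to 79.0, 84.5 and 76.0% (adjusted p = 1.06e-07), and the latter from 26.2, 27.7 and 27.6% to 77.5, 79.5 and 72.2% (adjusted p = 9.93e-09). Neither was called in CHG or CHH context.

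The largest fall in CG context lay at chr2:2241001-2242000, 545 bases from AT2G05850 (scpl38, annotated as a serine carboxypeptidase-like gene). Its CG level was 70.7, 65.2 and 67.7% in WT and 0, 0 and 4.23% in *strs2*, a difference of -66.5 points (edgeR adjusted p = 3.21e-10). Only 8 to 12 cytosines and 46 to 124 calls per plant stood behind these values, and the 0 of 72 and 0 of 92 calls allow up to 4.17 and 3.26%. Its CHG and CHH levels were low in all plants, at 0 to 2.56% and 0.840 to 1.69%, so that the methylation of this tile in WT was in CG context. The genic tile after it was also called, from 3.76 to 6.01% in WT to 0 to 1.32% in *strs2* (adjusted p = 0.000304). At chr2:2518001-2519000, which is 10780 bases from AT2G06265, CG fell from 84.9, 83.6 and 84.2% to 27.9, 32.8 and 28.5% (adjusted p = 1.74e-11) and CHG from 9.65, 9.76 and 13.7% to 0.873, 1.03 and 1.06% (adjusted p = 1.43e-07). At chr5:14042001-14043000 CG fell from 69.6, 76.9 and 60.2% to 21.7, 13.6 and 10.0% (adjusted p = 1.91e-06), over 6 to 9 cytosines.

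The p-values of single tiles in CHG context rest on a spread between plants pooled over all tiles, not on that of the tile itself. In CHG context the next rises were at chr4:2584001-2585000, 955 bases from AT4G05025, and at chr3:15976001-15977000, 751 bases from NAC060, a gene of the NAC transcription factor family. The former went from 1.68, 2.22 and 0.713% to 28.6, 30.2 and 30.7% (adjusted p = 5.20e-36), with CG from 45.6, 58.0 and 40.7% to 84.3, 83.2 and 79.1% and CHH from 0.503, 0.980 and 0.261% to 3.40, 3.33 and 3.07% (adjusted p = 7.30e-07 and 0.000837). Both of its neighbours were also called in CHG context. The genic tile before it went from 7.55 to 12.0% in WT to 21.8 to 33.5% in *strs2* (edgeR adjusted p = 0.000574). The member after it went from 5.80 to 13.9% to 26.2 to 40.2% (edgeR adjusted p = 0.00158). The tile near NAC060 went from 4.73, 7.74 and 10.8% to 31.8, 32.7 and 26.9% (adjusted p = 6.84e-11), with CG from 58.6, 49.1 and 57.4% to 88.5, 87.4 and 88.7% (adjusted p = 1.07e-07). Its CHH level did not follow, with 5.11, 5.68 and 6.44% in WT and 3.51, 5.08 and 5.51% in *strs2*.

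The largest CHG fall was at chr1:13699001-13700000, 262 bases from SHM7, a serine hydroxymethyltransferase gene. CHG went from 24.5, 17.4 and 24.7% to 0.446, 0.980 and 0.662% (adjusted p = 1.69e-19) and CG from 60.1, 64.5 and 63.4% to 14.4, 15.5 and 15.7% (adjusted p = 4.07e-10). Within the printed window CG was at 82.5, 70.8 and 75% in WT and at 0, 0 and 1.28% in *strs2*, the zeros standing for 139 and 141 calls, which allow 2.16 and 2.13%. The other falls lay at chr3:14812001-14813000, where WT plants varied widely (17.3, 40.4 and 28.6% against 6.70, 10.7 and 11.2%, adjusted p = 4.80e-06), and at chr5:13883001-13884000, 64 bases from CYP71B8, a cytochrome P450 gene. There the genotypes nearly met, with 36.2, 27.4 and 18.8% in WT and 17.6, 7.88 and 12.6% in *strs2* (adjusted p = 0.0457). CG fell in both tiles. On chromosome 3 it went from 88.0, 94.1 and 88.0% to 43.1, 43.1 and 45.2% (adjusted p = 1.81e-09). On chromosome 5 it went from 75.8, 75 and 67.3% to 52.3, 50.9 and 51.2% (adjusted p = 0.00353).

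In CHH context the largest rise lay at chr3:14761001-14762000, 372 bases from CHR38, a gene of a chromatin remodelling factor also known as CLASSY1 that acts in RNA-directed DNA methylation. Its CHH level was 0.852, 1.89 and 0.685% in WT and 10.0, 9.60 and 9.70% in *strs2* (8.63 points, edgeR adjusted p = 1.43e-05). CG rose in the same tile from 1.38, 3.09 and 0.913% to 27.9, 35.7 and 25.2% (adjusted p = 3.35e-08) and CHG from 1.02, 2.44 and 0.388% to 13.4, 12.2 and 6.61% (adjusted p = 2.74e-06). The tile after it, also a member, was methylated in both genotypes, at 53.4 to 81.6% CG in WT and 86.9 to 87.8% in *strs2* (adjusted p = 0.000340), and the tile before it was not, at 0 to 1.01%. The called differences thus lay at the edge of a methylated stretch and, in CG context, reached into its next tile. In the member after that, CHG was at 49.0 to 53.0% in WT and 38.8 to 43.4% in *strs2*. CHH was at 10.4 to 11.8% and 7.50 to 8.76% there. These ranges do not overlap and go the other way, though neither was called (edgeR adjusted p = 0.870 and 0.998).

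**Figure D4:**
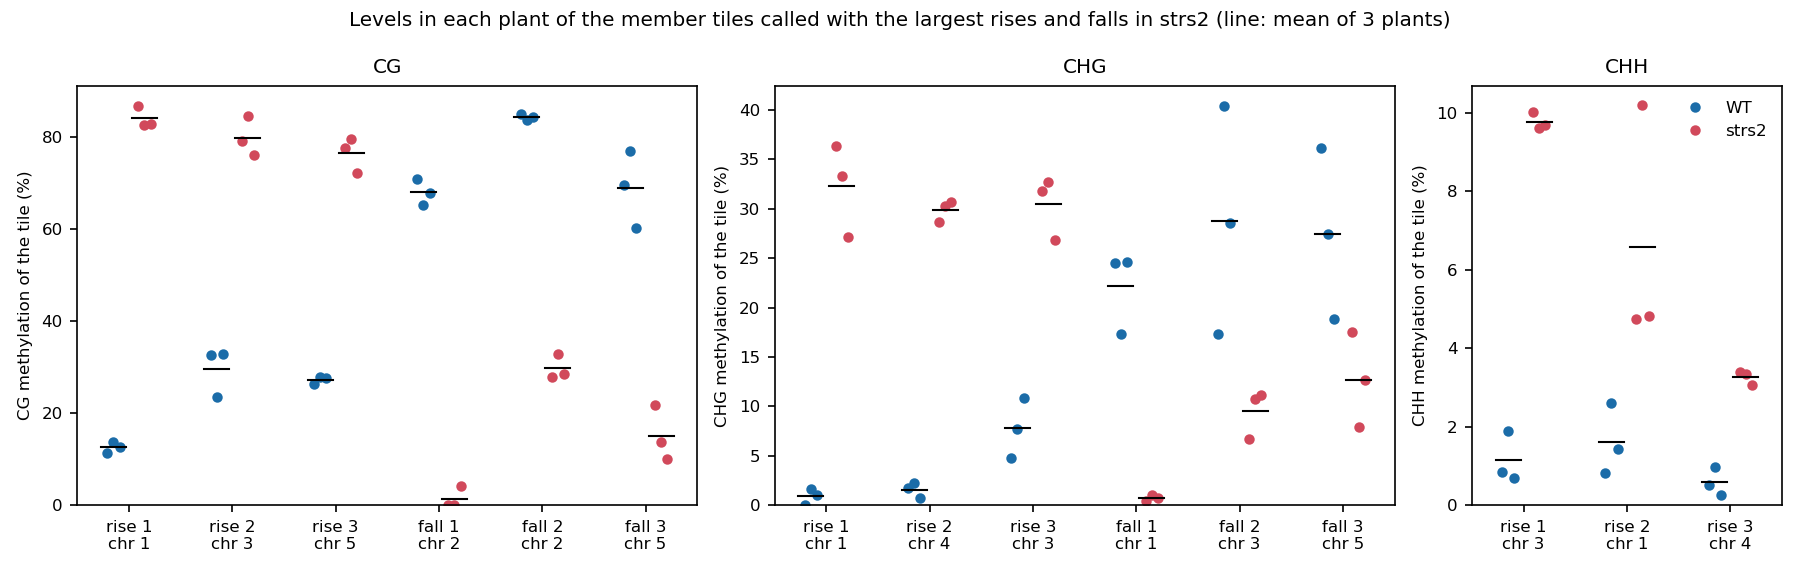
Methylation level (%, vertical axes) in each WT (blue) and *strs2* (red) plant of the members called with the up to 3 largest rises and falls in CG, CHG and CHH context, ordered by rank and named by chromosome, with a line at the mean of 3 plants. Non-overlapping genotypes were a condition for being named, and the largest CG rise goes from 11.3 to 13.8% in WT to 82.6 to 86.7% in *strs2*.

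The extremes of CHH methylation gave a scale for these differences. The member with the highest WT CHH level of each chromosome stood at 28.0, 23.2, 20.7, 27.1 and 28.8% on chromosomes 1 to 5, with CG at 76.1 to 94.4% and CHG at 57.1 to 70.2% in the WT means. That of chromosome 5, whose sequence is printed above, lay at chr5:14298001-14299000, 235 bases from AT5G36280, and had a CHH level of 26.9, 33.4 and 26.1% in WT and 21.9, 28.6 and 21.2% in *strs2*, ranges that overlap. Its printed window stood at 12.5 to 19.0% CHH. The lowest members of each chromosome had WT CHH levels of 0.182, 0.214, 0.287, 0.327 and 0.168%, at or below the chloroplast level. The member closest to the median, at chr2:2667001-2668000 overlapping the pseudogene AT2G06680, had CG levels of 89.1, 83.5 and 77.3% in WT and 82.1, 83.3 and 77.3% in *strs2*, CHG levels of 32.1, 31.4 and 33.4% and 37.8, 39.6 and 30.3%, and CHH levels of 7.37, 7.44 and 6.50% and 5.58, 8.89 and 3.35%. All 3 contexts overlapped between the genotypes in this tile.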

How the data were processed

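MethylC-seq libraries were made from bisulfite-treated DNA of 3 WT and 3 *strs2* plants, 1 library per plant. Trimming with Trim Galore 0.3.7 and cutadapt 1.9 and alignment by Bismark 0.14.5 with Bowtie2 2.2.9 against TAIR10 were done by the authors. They deposited, for each plant and context, counts of methylated and of unmethylated calls at every listed cytosine, with no normalization, pooling of plants or depth below 3. Annotation columns of the mRNA-seq count files gave 33056 nuclear gene spans, and no expression value was used.

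Here, cytosines with a depth of 4 or more were summed over 1 kb tiles. Groups of tiles were compared within plants by exact sign-flip permutation tests (6 plants) and genotypes by exact permutation tests (3 against 3), both two-sided, with Benjamini-Hochberg adjustment within each family of comparisons. Single tiles with at least 5 cytosines and 30 calls in every plant were tested with the quasi-likelihood test of edgeR 4.0.16 (R 4.3.3) on both kinds of call, with plant effects, and adjusted over all tiles, so that every adjusted p of a single tile comes from edgeR. In CHG context this fit pooled the spread between plants over all tiles, so that a CHG p does not measure the spread of its own tile. In CG and CHH context the spread of the tile entered, drawn towards that of all tiles. The test was also run on data simulated from the levels and depths of these tiles, and no result given here rests on that run. Named tiles were, in each context, the up to 3 largest rises and falls among called members whose genotypes do not overlap, the highest and lowest WT CHH member of each chromosome and the member closest to the median. The tandem repeat member was added after its values were seen. Wilson intervals (95%) and the upper limits given for levels of 0, which correspond to 3 calls, cover counting error only, and reads carried no molecular identifiers. The regions, groups and tests were chosen with earlier results of these data known. Alternatives changed the depth and tile minimum, the averaging, the tile sets, the model, the pairing and the plants.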

Additional observations from a re-analysis of the deposited data

How the results depend on the processing

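Of the alternative values, 174 kept their direction and their side of the threshold, or for counts stayed within 1.5 times, 49 lost significance, 22 moved and 8 turned. With 1 plant left out, exact sign-flip tests over 5 plants cannot go below p = 0.0625, so that no such comparison could pass. The ranges over the plants left out were 52.97 to 53.7 points in CG, 20.6 to 21.2 in CHG and 3.69 to 3.87 in CHH for members minus intergenic tiles outside the intervals. They were 10.4 to 10.8, 4.74 to 5.01 and 0.443 to 0.552 points for innermost minus outermost members, -16.4 to -15.9 for CCG minus the other CHG cytosines and 12.4 to 12.9 for CAA and CTA minus the other CHH cytosines. The order of neighbouring chromosomes gave 0 pairs past the threshold with any plant left out, with a depth of 10 or more, without tiles of repeated words and at 1 kb or more from genes, where the CHH difference between innermost and outermost members was 0.1401 points.

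For *strs2* minus WT the ranges were -0.185 (without WT-r3) to 1.53 points in CG, -0.0423 (without WT-r3) to 1.76 in CHG and -0.226 (without *strs2*-r2) to 0.355 in CHH, where leaving out WT-r3 gave -0.158. The same difference minus that of intergenic tiles outside the intervals ranged from -0.103 (without WT-r3) to 1.22 in CG, with -0.0286 without *strs2*-r1, and from -0.0193 (without WT-r3) to 0.305 in CHH, with -0.00372 without *strs2*-r2.

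Counts of called members depended on the model and the depth, as did the counts over all tested tiles, which are given after the word beside. In CG context the likelihood ratio test of edgeR called 221 higher, beside 5861. A depth of 6 or more per cytosine, which leaves fewer calls, gave 60 higher and 56 lower, beside 2285 and 2465. In CHG context the likelihood ratio test called 32 higher and 14 lower, beside 300 and 228, and a quasi-binomial model 31 higher, beside 206. In CHH context the likelihood ratio test called 9 higher and 4 lower, beside 111 and 110. The quasi-binomial model called 1 lower there, beside 38, and depth 6 gave 1 lower, beside 28. With 1 plant left out, 86 to 127 members were higher and 81 to 105 lower in CG, 12 to 17 and 5 to 8 in CHG, and 2 to 3 and 0 to 1 in CHH context. Leaving out WT-r3 turned the balance of the members in CG context, to 86 higher and 103 lower, and gave 12 and 8 in CHG context. Over all tested tiles the CG balance also moved further towards falls, which outnumbered rises there with all plants too. The causes were not tested.

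The replicate numbers did not pair the plants (correlation of tile deviations of same-numbered plants -0.0127 to 0.0330). With the replicate number as a block, 130 members were higher and 114 lower in CG, 14 and 7 in CHG, and 3 and 0 in CHH context. Over all tested tiles the counts were 4286 and 4470, 146 and 96, and 53 and 47. Restriction to cytosines of depth 4 or more in all 6 plants, the chromosome order without organelle-like tiles of chromosome 2, and the differences by chromosome and non-overlap counts without WT-r3 were added after the data were seen.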
